A study of Mus musculus with 2 samples.

Results

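Nuclear receptor genes were compared in the livers of Bglu3 congenic mice and C57BL/6 apoE-/- control mice, on 1 Affymetrix expression array per group. The members were fixed by name, as 35 receptor genes with a known or suspected place in liver, and every probe set that carries 1 of these symbols alone was taken. Of the 35 genes, 34 had such a probe set, out of 18193 genes measured on the arrays, and together they had 94 of 34945 probe sets with 1 symbol. Nr1h2, the more widely expressed oxysterol receptor, is not analysed here. Bglu3 is a blood glucose locus on chromosome 1. A congenic strain carries a donor segment on the background of another strain, here C57BL/6 per the labels, and the donor strain is not named in the labels. Apolipoprotein E clears lipoprotein remnants from blood, and the control mice lack a working gene for it. Whether the congenic mice do so too is not stated in the labels. Both groups are labelled as hyperglycemic, were weaned to chow at 3 weeks of age, changed to a Western diet at 6 weeks and stayed on it for 12 weeks. The labels do not state the sex, the number of mice behind each array, or whether RNA was pooled. As each group has 1 array, the spread between animals is unknown and nothing could be tested, so each difference describes these 2 arrays and has no replicate check.

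Nuclear receptors are transcription factors with a zinc finger domain that reads short DNA elements and, in most members, a domain that binds a small lipophilic ligand. Many bind DNA as a pair with a retinoid X receptor (RXR), and ligand binding exchanges corepressors for coactivators. In liver they link bile acids, oxysterols, fatty acids, hormones and foreign compounds to the enzymes and transporters that handle them. The orphan members have no settled ligand, and some, such as Nr0b2, lack the DNA-binding domain.

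The receptors measured lay mostly close to equal on both arrays, and the few larger differences were on the lower side in the congenic array. A gene was represented by its brightest probe set and counted as expressed if that probe set reached the median of its array (19.3 congenic, 19.7 control) on at least 1 array. Differences are log2(intensity + 5), congenic minus control, so that 1.5-fold is 0.58, and folds on this scale understate the difference of dim genes. Of the 34 receptors, 31 were expressed. None of the 31 was higher by at least 1.5-fold in the congenic array, against 7.47% of all 12614 expressed genes. On the lower side 4 were past that size (12.9% of the 31), against 5.23% of all expressed genes, and 27 lay within 1.5-fold. The count on the lower side depended on the settings, as it was 1 with the median over each gene's probe sets, against 4.51% of all genes, and 1 of 21 with a stricter filter at the 75th percentile, against 2.85%. It was 2 with a pseudocount of 20, against 2.77%, and 6 after quantile normalization, against 5.64%, or after removal of a loess trend, against 5.48%. On this scale no receptor was 2-fold apart in either direction, a size that 3.36% of expressed genes reached, but the raw intensities of Thrb were 2.05-fold apart. The median difference over the 31 was -0.01, beside 0.04 over all expressed genes, and its sign changed with no filter (0.01), expression on both arrays (0.01), plain _at probe sets alone (0.03) and, by a shift common to all genes, median centring (0.02).

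The 4 genes past 1.5-fold were Ppara, Thrb, Nr4a3 and Nr6a1. Just short of that size were Nr1i2 and Nr0b2, each at a log2 difference of -0.57, and both passed it after quantile normalization (-0.61 and -0.60). On the higher side the largest value was that of Nr3c2, at 0.53. Thrb was above the expression limit on the control array alone, so it passed the filter through the array where it was higher. Rara, Vdr and Hnf4g did not reach the limit on either array.

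**Figure D1:**
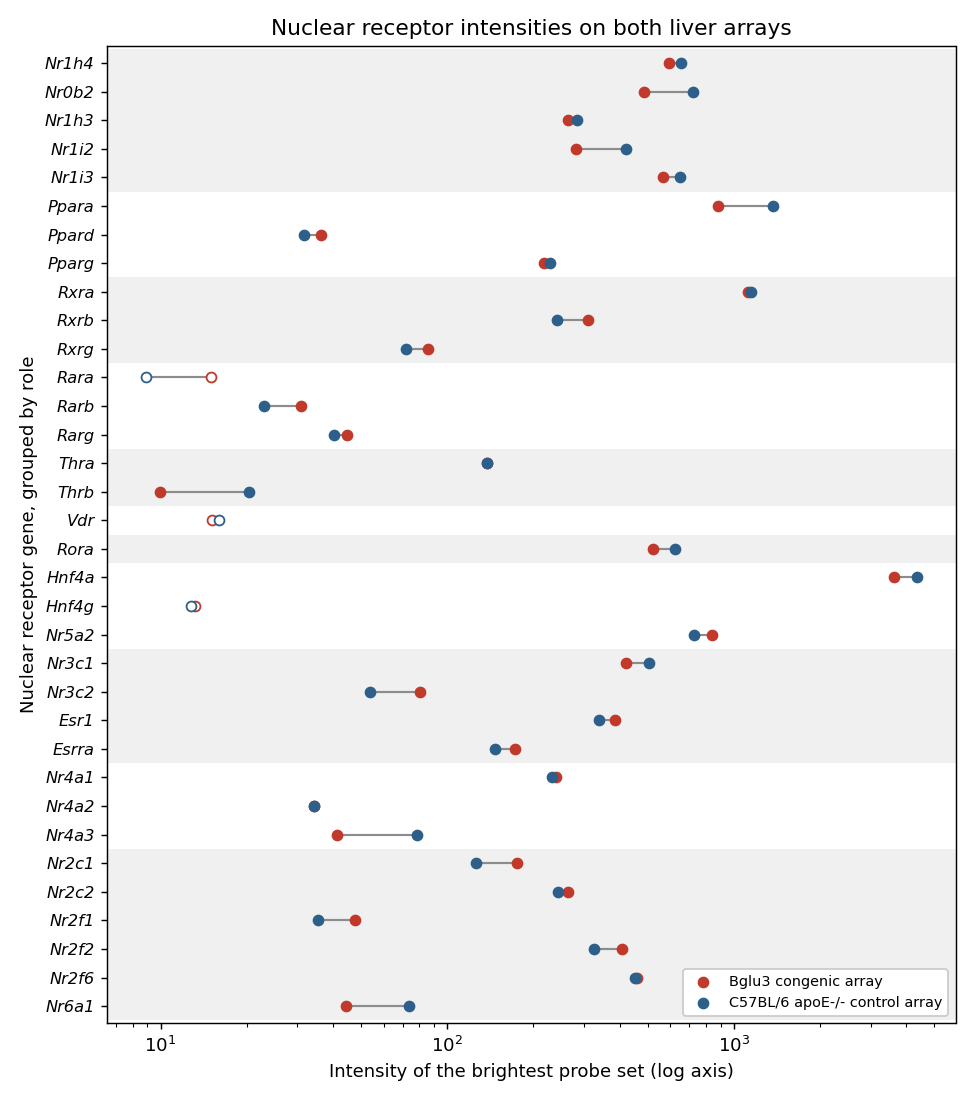
Intensity of the brightest probe set of each of the 34 receptors (log axis) on the congenic (red) and control (blue) array, grouped by role in alternating bands. Open points are the 3 receptors below the expression limit. The line joins 1 gene's 2 values, and levels of different genes are not comparable. Ppara, Nr0b2, Nr1i2, Thrb, Nr4a3 and Nr6a1 have the widest gaps with the control value on the right.

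**Figure D2:**
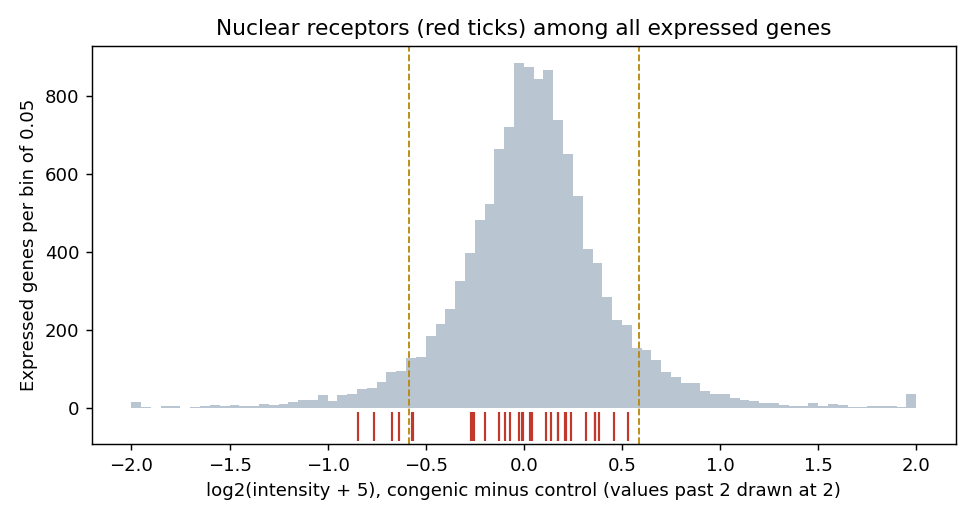
Histogram of the log2 difference of 12614 expressed genes (bins of 0.05, values past 2 drawn at 2), with the 31 expressed receptors as red ticks under it and 1.5-fold as dashed lines. No tick lies beyond the upper dashed line, and 4 lie beyond the lower one.

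Over all probe sets, the counts were close to those of the arrays as a whole. Of the 94 probe sets, 63 were expressed. Of these, 4 were higher by 1.5-fold or more (6.35%, beside 7.22% of all expressed probe sets). On the lower side were 5 (7.94%, beside 6.05%). The 4 were single probe sets of Nr2f2, Nr3c1, Rora and Thra, and in each of these genes a brighter probe set lay within 1.5-fold. The 5 were the only expressed probe sets of Thrb and Nr4a3, the brightest ones of Ppara and Nr6a1, and 1 of the 4 of Hnf4a. Of 15 receptors with at least 2 expressed probe sets, 7 had all of them on 1 side of 0 (46.7%, beside 52.3% of 5195 such genes on the arrays). Ppara, Nr1i2, Hnf4a and Rxra were lower in all, and Nr2f2, Nr2c2 and Nr2f6 higher in all. Probe sets of the same receptor scattered with an SD of 0.30 around their mean, and those of all genes with an SD of 0.34. That scatter is between probe sets on the same arrays and says nothing about other animals.

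**Figure D3:**
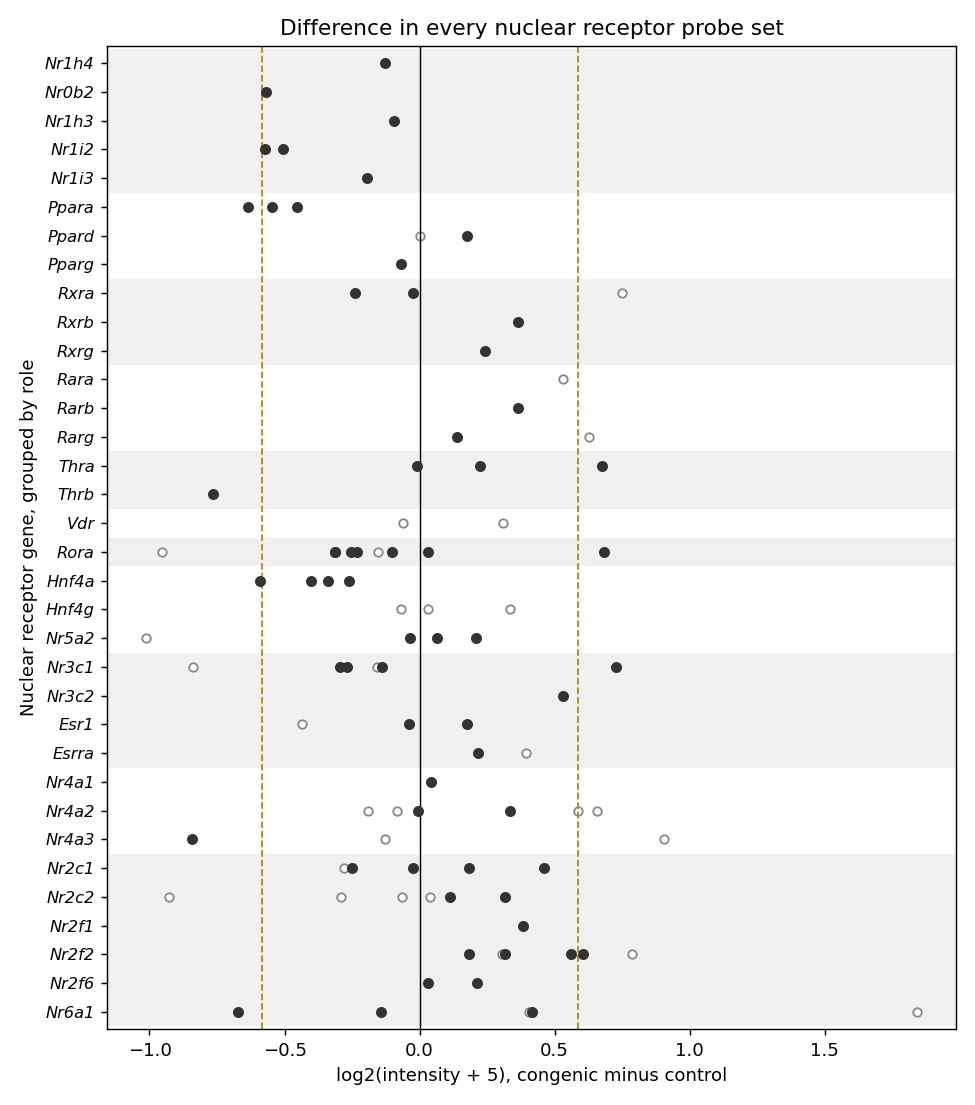
Difference in log2(intensity + 5), congenic minus control, of all 94 receptor probe sets by gene. Filled points are the 63 expressed ones, open points the 31 dim ones, and dashed lines mark 1.5-fold. The 3 points of Ppara, both of Nr1i2 and the 4 of Hnf4a lie left of 0, and all 6 of Nr2f2 lie right of it.

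The promoters of Ppara, Nr1i2 and Nr0b2 are shown as examples of hepatocyte receptors lower in every probe set, of which Nr0b2 has only 1. Others, such as Hnf4a, Nr1h4 and Nr1h3, were lower in every probe set too and are not shown. The promoter of Nr2f2 is an example of a receptor higher in every probe set. That of Nr1i3 is an example from the chromosome of the locus, which also holds Nr5a2 and Rxrg. Each promoter shown is the 250 bases before the annotated start, from RefSeq on GRCm38.p6. Capitals mark a match to the nuclear receptor core motif AGGTCA or to the E-box CACGTG, on either strand.
Ppara, chr15:85735526-85735775, plus strand: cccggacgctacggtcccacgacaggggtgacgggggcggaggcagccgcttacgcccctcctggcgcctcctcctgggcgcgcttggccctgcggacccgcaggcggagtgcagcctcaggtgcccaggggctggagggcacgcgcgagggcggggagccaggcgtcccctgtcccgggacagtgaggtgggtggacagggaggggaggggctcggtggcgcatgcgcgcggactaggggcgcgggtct
Nr1i2, chr16:38294825-38295074, minus strand: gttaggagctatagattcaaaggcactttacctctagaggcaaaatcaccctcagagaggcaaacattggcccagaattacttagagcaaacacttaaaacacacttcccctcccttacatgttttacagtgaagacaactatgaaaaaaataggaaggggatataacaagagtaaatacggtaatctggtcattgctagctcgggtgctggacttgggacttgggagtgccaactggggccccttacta
Nr0b2, chr4:133553126-133553375, plus strand: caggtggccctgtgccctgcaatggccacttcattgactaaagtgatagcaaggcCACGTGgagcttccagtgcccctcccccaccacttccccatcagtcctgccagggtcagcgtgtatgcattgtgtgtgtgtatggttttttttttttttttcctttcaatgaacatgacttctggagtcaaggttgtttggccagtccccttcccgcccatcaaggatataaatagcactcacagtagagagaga
Nr1i3, chr1:171213720-171213969, plus strand: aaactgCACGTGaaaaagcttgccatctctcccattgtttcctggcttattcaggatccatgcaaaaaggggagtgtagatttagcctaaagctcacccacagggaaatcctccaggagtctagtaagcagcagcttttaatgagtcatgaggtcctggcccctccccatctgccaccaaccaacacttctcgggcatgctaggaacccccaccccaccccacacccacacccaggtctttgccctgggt
Nr2f2, chr7:70366747-70366996, minus strand: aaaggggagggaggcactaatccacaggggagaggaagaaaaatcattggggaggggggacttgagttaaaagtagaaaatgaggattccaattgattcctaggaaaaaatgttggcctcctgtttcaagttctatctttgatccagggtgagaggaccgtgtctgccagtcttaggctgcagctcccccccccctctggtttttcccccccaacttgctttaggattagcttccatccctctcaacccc
The windows of Nr0b2 and Nr1i3 each hold 1 E-box, the element read by clock and Myc-type factors, and no core motif. The windows of Ppara, Nr1i2 and Nr2f2 hold neither. The Ppara window is the richest of the 5 in G and C, at 76.4%, and that of Nr1i2 the poorest, at 44.0%. The 32851 windows of the whole table had a median of 52.4%.

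Across the 32 receptors with a promoter in the table, 8 held at least 1 core motif (25.0%), beside 15.8% of 27025 genes. Some genes have several windows, and by window the shares were 9 of 48 (18.8%) and 14.0%. Receptors have more windows per gene than the table as a whole, which favours the share by gene. The 8 genes were Nr5a2, Rxrg, Rxra, Nr6a1, Pparg, Nr1h4, Thrb and Rarg, which include genes on both sides of 0. The E-box was found in 4 of the 32 (12.5%, beside 6.86% of all genes, and by window 8.33% beside 6.02%), namely Nr1i3, Nr0b2, Rara and Thrb. Core motifs spaced as a direct repeat by 1 base (AGGTCANAGGTCA) or by 4 bases (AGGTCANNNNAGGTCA), or inverted with 1 base between them (AGGTCANTGACCT), were found in none of the 32. The same holds for the extended core motif TCAAGGTCA of the Nr5a2 type. Among all genes these 4 were rare as well, at 0.041%, 0.015%, 0.0074% and 0.42%, and every longer motif contains the core motif. A match is a run of letters and not a measured site.

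The bile acid, oxysterol and xenobiotic receptors were below the control value in all 5 genes measured, by different amounts. Nr0b2, the small heterodimer partner (SHP) that represses bile acid synthesis genes, stood at an intensity of 484 against 720.2 in the control array, 1.48-fold lower. Nr1i2, the pregnane X receptor (PXR) that senses foreign compounds and steroids, stood at 282 against 421 and in its second probe set at 147 against 210.3. Its differences of -0.57 and -0.50 were thus nearly alike in both probe sets. The bile acid receptor FXR (Nr1h4) stood at 596 against 652, a difference of -0.13, and CAR (Nr1i3), the constitutive androstane receptor, at 566 against 650 (-0.20). Nr1h3, the oxysterol receptor LXR-alpha, differed by -0.09, with 265 against 283. The median of the 5 was -0.20, and 43.9% of all expressed genes were below 0. Each of the 5 kept its sign under every scaling, pseudocount and probe set rule tried that could give it a value.

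Among the fatty acid receptors, Ppara had the widest gap between the arrays. Ppara, which drives fatty acid oxidation in fasting, had intensities of 882, 897 and 629 in the congenic array and 1373, 1312 and 864 in the control array for its 3 probe sets. All 3 were thus lower in the congenic array, with differences of -0.63, -0.55 and -0.45, and 4.46% of expressed genes were as low as the first. Pparg, the adipogenic receptor that also rises in fatty liver, was nearly equal at 218 against 229 (-0.07), in 1 probe set. Ppard, the ubiquitous member, stood at 36.4 against 31.7 (0.17), and its other probe set was at 1 on both arrays, a value repeated across dim probe sets. Whether the 3 genes differ from each other in response was not tested.

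Rxrb, Rxrg and the expressed retinoic acid receptors were above the control value, while Rxra was slightly below it in both expressed probe sets. Rxra, the main RXR of hepatocytes, stood at 1123 against 1144 (-0.03) and in its other expressed probe set at 88.1 against 104.9 (-0.24). Rxrb was higher at 311 against 241 (0.36), and Rxrg, a form better known from muscle and brain, at 85.6 against 71.6 (0.24). The retinoic acid receptors were dimmer. Rarb, a receptor gene that retinoic acid itself induces, was at 30.9 against 22.9 (0.36) and Rarg at 44.8 against 40.2 (0.14). Rara, with 15.1 against 8.90, was below the expression limit on both arrays. No member of either family was past 1.5-fold.

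The thyroid hormone receptors had unlike values, of which that of Thrb is dim. Thrb, the main thyroid hormone receptor of liver, had 1 probe set, with 9.94 against 20.4, a difference of -0.77 on the log2(intensity + 5) scale. It lies at the expression limit, and the difference was -0.43 with a pseudocount of 20 and -1.04 with none. Thra was equal in its brightest probe set, at 137 against 138, while its other probe sets were higher at 98.3 against 83.5 and at 104 against 63.5, which gave 0.22 and 0.68. Vdr, the vitamin D receptor, which hepatocytes hardly express, stood at 15.1 against 15.96, below the limit. Rora, a receptor of the clock and of lipid metabolism, stood at 523 against 626 in its brightest probe set (-0.25). Of its 7 expressed probe sets, 5 were lower and 2 higher, and the range was from -0.31 to 0.68.

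Hnf4a, the receptor that maintains hepatocyte identity, was lower in all 4 probe sets, and the one at -0.59 was just past 1.5-fold. Its intensities were 3628, 1702, 231 and 71.0 in the congenic array and 4353, 2249, 351 and 91.1 in the control array. The differences were -0.26, -0.40, -0.59 and -0.34. The brightest of these probe sets and the one at -0.59 are of a type (_s_at) that can read more than 1 transcript. Its relative Hnf4g was below the limit, at 13.2 against 12.8. Nr5a2, the liver receptor homolog LRH-1 that acts on bile acid and cholesterol genes, stood at 842 against 728 (0.21), and its other expressed probe sets at 168 against 160.4 and 192 against 197. A further, dim probe set of Nr5a2 went the other way, at 6.07 against 17.3.

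The steroid receptors differed little in their brightest probe sets, apart from Nr3c2. The mineralocorticoid receptor gene Nr3c2 stood at 80.1 against 53.9, 1.45-fold higher in its single probe set. The glucocorticoid receptor gene Nr3c1 was lower at 419 against 506 (-0.27), at 334 against 410.0 (-0.29) and at 186 against 205 (-0.14). The other expressed probe set went the other way, at 39.4 against 21.8 (0.73). Esr1, the estrogen receptor of liver, stood at 384 against 339 (0.18) in 1 probe set and 155 against 159 (-0.04) in another. Esrra, a driver of mitochondrial genes, stood at 172 against 147 (0.22).

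The NR4A receptors are immediate early genes without a classical ligand, and only Nr4a3 differed by 1.5-fold. Nr4a3 stood at 41.4 against 78.4, a difference of -0.84, the lowest among the 31 expressed receptors, and 2.20% of expressed genes were as low. Its 2 other probe sets were dim and disagreed, at 6.23 against 1 and at 1.60 against 2.22. Nr4a1 was nearly equal at 240 against 233 (0.04), and its sign changed after quantile normalization (-0.01). Nr4a2 stood at 34.3 against 34.5, nearly equal too, and at 21.0 against 15.6 in its second expressed probe set.

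The orphan receptors of the COUP-TF and testicular receptor type were above the control value in 5 of 6 genes, beside 7078 of all 12614 expressed genes. With the median over probe sets, Nr2c1 (-0.03) and Nr2c2 (-0.01) were below 0. Nr2f2 (COUP-TFII), known from venous endothelium and mesenchyme, stood at 406 against 325, and its other expressed probe sets at 67.8 against 42.9, 54.3 against 47.2 and 20.8 against 12.4. All were higher in the congenic array, with differences from 0.18 to 0.61. Nr2f1 (COUP-TFI) stood at 47.5 against 35.3 (0.38). Nr2f6 was nearly equal at 460 against 450.3 (0.03), with a sign that changed after removal of a loess trend (-0.0038). The testicular receptors TR2 (Nr2c1) and TR4 (Nr2c2) bind direct repeats and repress or activate by context. Nr2c1 stood at 176 against 126 (0.46), although its 4 expressed probe sets spread from -0.25 to 0.46, and Nr2c2 at 264 against 244 (0.11). Nr6a1, the germ cell nuclear factor, stood at 44.4 against 73.6 in its brightest probe set (-0.67). Its other expressed probe sets stood at 44.4 against 49.5 (-0.14) and at 30.2 against 21.4 (0.41). The median over all 5 of its probe sets, 2 of them dim, was 0.41.

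Receptors were also counted by level. In the brightest 25% of expressed genes, 8 of 10 receptors were below 0, with a median of -0.23, beside 45.2% and a median of 0.02 for all 3154 genes of that bin. These 10 were Hnf4a, Ppara, Rxra, Nr0b2, Nr1i3, Nr1h4, Rora, Nr3c1, Nr5a2 and Nr2f6, and only the last 2 were above 0. Ppara alone among them was lower by 1.5-fold, beside 2.73% of all genes of that bin. In the next 25%, 4 of 11 receptors were below 0 (36.4%, beside 39.5% of all genes there). The third bin held 2 of 4 below 0, beside 41.6% of all genes there, with a median of -0.21. Both (Nr4a3 and Nr6a1) were lower by 1.5-fold, beside 3.49% of all genes there. The dimmest bin held 2 of 6, beside 49.2%, with a median of 0.16. Thrb is 1 of these 2 and was lower by 1.5-fold, as were 12.5% of all genes there. The bins were set by intensity over all genes, and the receptors in them are too few to read more than the counts.

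On chromosome 1, where the locus lies, are 3 of the receptors, Nr1i3, Nr5a2 and Rxrg, and none reached 1.5-fold. Their differences were -0.20, 0.21 and 0.24. Of 736 expressed genes on this chromosome, 9.78% were higher and 6.25% lower by that size. Among the nuclear receptors outside the 35, Esrrg, an estrogen-related receptor of oxidative tissues that is also on chromosome 1, was lower in its 1 expressed probe set, at 25.2 against 59.8 (-1.10). Its relative Esrrb stood at 36.4 against 59.1 (-0.63). Of that list, 6 of 13 genes were expressed, with 2 lower (33.3%), none higher and a median of -0.36. Of all expressed genes, 5.23% were lower and 7.47% higher, with a median of 0.04. The list's highest members were Esr2 at 0.55, which passed the expression limit on the congenic array alone, and the clock repressor Nr1d1 at -0.24. Among the 2 highest and 2 lowest genes of the other lists, those on chromosome 1 lay on both sides of 0. They were Marco (1.85), Rgs5 (1.14), G0s2 (1.10), Des (-0.16), Rdh10 (-0.27), Mogat1 (-0.30) and Cyp27a1 (-0.36).

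Coregulators, which receptors recruit to open or close chromatin, were within 1.5-fold in their brightest probe sets. All 15 coactivator genes were expressed, with 10 above 0 and a median of 0.16. Of all 12614 expressed genes, 7078 were above 0, and their median was 0.04. Med1, the Mediator subunit that docks nuclear receptors, stood at 192 against 133 (0.51) and Ncoa7 at 79.0 against 54.0 (0.51), while Ncoa4 and Pprc1 were lowest at -0.18 and -0.15. Of the corepressors, 7 were expressed, with a median of 0.07. Nrip1, a corepressor of metabolic genes, differed by 0.56, but its 4 probe sets ranged from -0.63 to 0.56. Sin3a was next at 0.47, with probe sets from 0.22 to 0.74, and Tbl1xr1, named after its values were seen, was at -0.04 with probe sets from -1.18 to 0.12. The lowest were Lcor (-0.15) and the deacetylase gene Hdac3 (-0.10).

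Lists of known target genes were set beside the receptors, and they did not all follow the direction of their receptor's own message. For comparison, 7.47% of all expressed genes were higher and 5.23% lower by 1.5-fold, 43.9% were below 0, and the median was 0.04. PPAR-alpha targets were centred on 0, with 29 expressed genes, a median of 0.01, 1 higher by 1.5-fold and none lower. Fgf21, a fasting hormone, was the 1 past that size, at 135 against 71.6 (0.87), followed by the kinase gene Pdk4 at 0.52. The lowest were Pex11a, of peroxisome division (-0.44), and Cyp4a31 (-0.24). The FXR list, which holds both genes that FXR induces and genes that SHP represses, had a median of -0.07 over 13 genes, which turned to 0.13 with plain _at probe sets alone. Cyp8b1 (2353 against 1382, 0.77) and Cyp7a1 (1818 against 1162, 0.64), bile acid synthesis genes of the repressed kind, were its highest and the 2 past 1.5-fold. Vldlr (-0.25) and Slc51a (-0.22) were lowest, and none was lower by 1.5-fold in its brightest probe set, although the 5 probe sets of Vldlr reached from -1.17 to -0.25.

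CAR and PXR targets leaned to the lower side, with 18 of 23 below 0, beside 43.9% of all expressed genes. Their median was -0.15, with 3 lower by 1.5-fold (13.0%) and 1 higher (4.35%), beside 5.23% and 7.47%. Cyp3a16 (13.0 against 75.8, -2.16) and the carboxylesterase gene Ces2a (691 against 1158, -0.74) were lowest. Cyp2b10, a classical CAR target, was highest at 25.7 against 10.5 (0.99), followed by Sult1e1 (0.41). Cyp2b10 passed the expression limit on the congenic array alone and Cyp3a16 on the control array alone. Probe sets of Cyp2 and Cyp3 genes can read close relatives, so single values are uncertain. LXR targets had a median of 0.06 over 13 genes. The lipoprotein genes Lpl (2643 against 1744, 0.60) and Pltp (0.58) were highest, and Abcg8, a subunit of the sterol exporter of the canalicular membrane (-0.50), and Srebf1, a lipogenic factor (-0.47), were lowest. PPAR-gamma targets had a median of 0.02 over 6 genes and none past 1.5-fold, between Cidec (-0.31) with Mogat1 (-0.30) and Fabp4 (0.26) with Plin4 (0.23).

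Targets of the glucocorticoid and thyroid hormone receptors differed in both directions. Of 20 glucocorticoid receptor targets, 6 were lower and 3 higher by 1.5-fold, and the median was -0.32 (-0.17 with plain _at probe sets alone). Lpin1, a phosphatidate phosphatase (498 against 2078, -2.05), and Fkbp5, a chaperone of the receptor itself (261 against 920.2, -1.80), were lowest. G6pc, which releases glucose (2923 against 1321, 1.14), and the aminotransferase gene Got1 (0.82) were highest. Thyroid hormone targets had 8 expressed genes, with 3 lower (37.5%), 1 higher (12.5%) and a median of -0.32. The lipogenic gene Thrsp (434 against 1356, -1.63) and the deiodinase gene Dio1 (652 against 1237, -0.92) were lowest. The 3 probe sets of Thrsp lay between -1.63 and 0.12. G0s2, an inhibitor of lipolysis, was highest at 2586 against 1204 (1.10), and Idh3a followed at 0.04.

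The HNF4, retinoid and estrogen-related receptor lists had no gene past 1.5-fold in its brightest probe set. HNF4 targets lay between -0.08 (Apoa4) and 0.38 (the pyruvate kinase gene Pklr), with F9 at -0.04, Otc at 0.14 and a median of 0.03 over 8 genes that turned to -0.01 after quantile normalization. Retinoid genes had a median of 0.09 over 9, between Rdh10 (-0.27) with Aldh1a1 (-0.14) and Tgm2 (0.40) with Lrat (0.36). Estrogen-related receptor targets of the mitochondrion were below 0 in 8 of 9, beside 43.9% of all expressed genes. Their median was -0.14 and none was past 1.5-fold, from Uqcrc1 (-0.34) and Atp5b (-0.28) to Cycs (-0.0004) and Idh3a (0.04). The vitamin D list had 4 expressed genes, all lower, with a median of -0.39. S100g, a calcium-binding protein, was at 1 against 25.1 and was the 1 past 1.5-fold, but it passed the expression limit on the control array alone, and Cyp2r1 (-0.40), Trpv6 (-0.38) and Cyp27a1 (-0.36) were also lower.

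**Figure D4:**
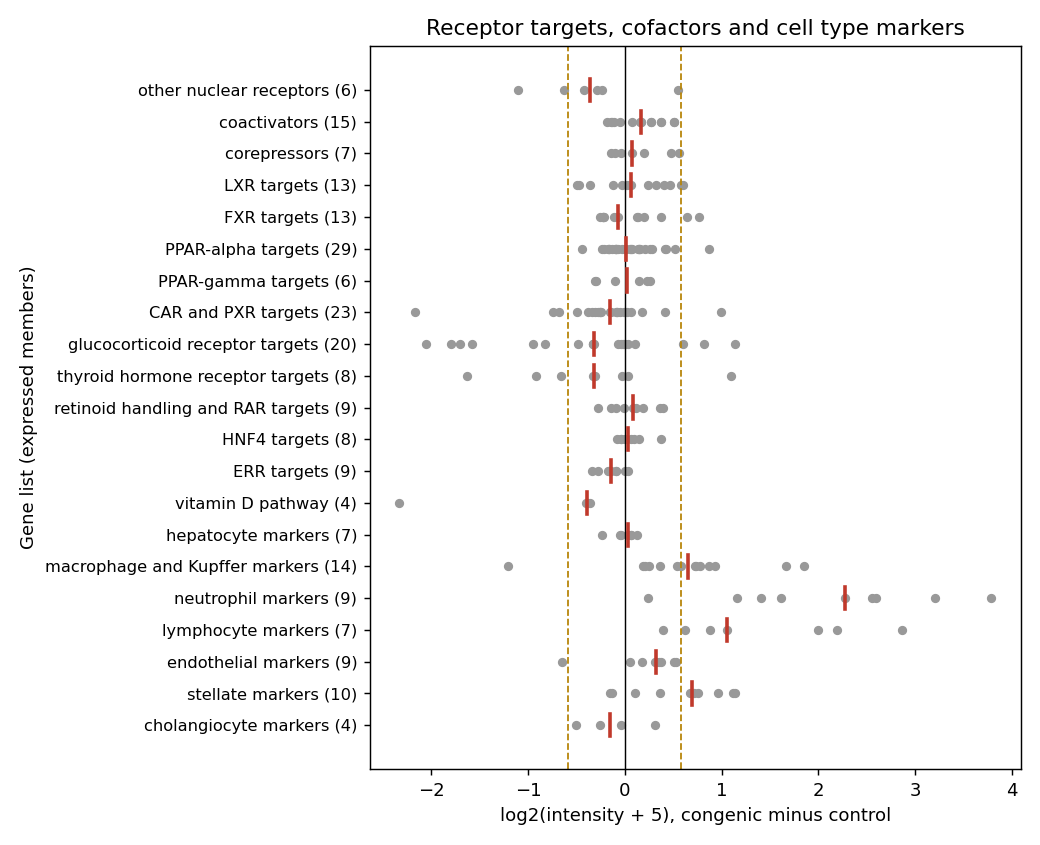
Difference in log2(intensity + 5), congenic minus control, of the expressed genes of each list (grey points, number in brackets) with the list's median (red bar) and 1.5-fold (dashed). Glucocorticoid and thyroid hormone receptor targets spread widely around medians of -0.32, while PPAR-alpha and HNF4 targets gather near 0 and neutrophil markers reach 3.78.

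Cell type markers also differed between the arrays. The counts below stand beside 7.47% of all expressed genes higher and 5.23% lower by 1.5-fold, with a median of 0.04. In bulk tissue, fewer cells of a type and less RNA per cell cannot be told apart. Hepatocyte markers were even: none of 7 was past 1.5-fold, with a median of 0.03 (-0.02 after quantile normalization) and summed intensities of 62661 and 60397, so the defining markers of the labelled tissue were present on both arrays. The highest were Alb at 0.13 and Ttr at 0.06, the lowest Ass1 at -0.23 and Asgr1 at -0.05. For stellate cells the median was 0.69 (0.21 with the median over probe sets), and 6 of 10 markers were higher. The summed intensities of the 10 were 9311 against 7086. They lay between Des (-0.16) with Reln (-0.13) and Rgs5 (1.14) with Col1a1 (1.12). The 4 expressed probe sets of Rgs5 ranged from 0.40 to 2.84. For endothelium the median was 0.32, and none of 9 markers was higher by 1.5-fold and 1 was lower (Lyve1, -0.64), with a sum of 4039 against 3607, Tek at 0.06, and Kdr and Cdh5 highest at 0.51 and 0.53. Nr2f2, Nr2f1 and Rarb, receptors known from such cells, lay between 0.32 and 0.38. No list of receptors by cell type was made, and others such as Pparg (-0.07) and the dim Vdr (-0.06) were not higher.

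Immune cell markers differed more. For macrophages and Kupffer cells the marker median was 0.65, and 7 of 14 were higher, 1 lower with a sum of 32392 against 22272, from Gpnmb (-1.20) and Cd5l (0.19) to Timd4 (1.66) and Marco (1.85). The neutrophil median was 2.27, and 8 of 9 markers were higher, with a sum of 12747 against 5119. Most of both sums came from Lcn2 alone, at 8590 against 3853. The 9 markers ran from Elane (0.24) and Lcn2 (1.16) to Prtn3 (3.20) and Camp (3.78). Of these 9, Camp, Ltf, Mpo and Prtn3 passed the expression limit on the congenic array alone, and the median was 1.41 with expression required on both arrays. The lymphocyte median was 1.05, and 6 of 7 expressed markers were higher, with a sum of 1179.9 against 305 over 9 genes. The expressed markers ran from Cd8a (0.39) and Ms4a1 (0.62) to Ighm (2.19) and Jchain (2.87). The 8 expressed probe sets of Ighm ranged from -0.09 to 2.66. Cholangiocyte markers had 4 expressed genes, none past 1.5-fold, a median of -0.15 and a sum of 143 against 162, from Sox9 (-0.50) and Epcam (-0.26) to Krt19 (-0.04) and Krt7 (0.31). No marker of any list was at the repeated low value of 1 on either array. The part of cell composition in the receptor differences was not tested. Apoe, the gene disrupted in the controls, stood at 229 against 118 (0.93), but its probe set may lie outside the disrupted stretch, so it checks no label.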

How the data were processed

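Liver RNA was measured on 1 array per group. Per the labels' protocols, biotinylated cRNA was made from 8 µg of total RNA. The deposited values are linear intensities, 1 per probe set and array; the probe summary and array scaling by the authors are not stated. Medians differed by -0.02 (log2), and values were used as deposited. The number of arrays limits the precision.

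Control probe sets (64) were left out. Of the other 45037, 34945 had 1 gene symbol in the platform annotation, 932 had several and 9160 none, and genes were named from those with 1. A probe set shared by Ppard and another gene was not used. Of 303 genes in all lists, 27 had no probe set with 1 symbol and are not reported here.

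The members and lists were chosen with earlier results of these data known. Named genes are all receptors, the 2 highest and 2 lowest expressed genes of each other list, Apoe and Alb. The chromosomes of Esrrg and the other named list genes were looked up after their values were seen. Lists share some genes (Klf9, Idh3a, Lrat, Aldh1a1, Ttr, Apob). The 11 alternatives changed scaling, pseudocount (20 or none), filter, probe set rule or fold. The procedure was tested on simulated data with planted differences well past 2-fold, so that test does not bear on calls near 1.5-fold. Promoters were searched for 6 motifs. Python 3.11.15, pandas 2.3.3 and statsmodels 0.14.6 were used.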

Additional observations from a re-analysis of the deposited data

How the results depend on the processing

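The count of receptors higher by 1.5-fold was 0 under every alternative. The count lower was 6 after quantile normalization and 6 after removal of a loess trend, 2 with a pseudocount of 20, 1 with the 75th percentile as filter, 1 with the median over probe sets and 0 at 2-fold. Probe sets higher numbered 0 with a pseudocount of 20, 0 with the 75th percentile, 0 at 2-fold and 11 of 94 with no filter. Those lower numbered 2, 2, 0 and 9. With no filter the 31 dim probe sets were taken in. Of all 13956 dim probe sets, 11.3% were higher and 13.7% lower by 1.5-fold. The shares of all probe sets under these settings were not counted. Ppara passed 1.5-fold in 6 of 7 alternatives (-0.65 to -0.61) and fell short of it, at -0.55, with the median over its probe sets. With the median over probe sets, which takes in dim ones, Nr6a1 reversed to 0.41, Nr4a3 was at -0.13 and Nr2c1 at -0.03. The values for Nr6a1 and Nr4a3 are those of dim probe sets (4.08 against 1.85, and 1.60 against 2.22). The value for Nr2c1 is that of an expressed probe set (20.5 against 21.0). What lies behind the other changes was not tested.

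List medians that moved by 0.1 or more were as follows. With a pseudocount of 20, other nuclear receptors were at -0.25, neutrophil markers at 1.58 and lymphocyte markers at 0.80. With none, neutrophil and lymphocyte markers were at 2.65 and 1.18. With no filter, PPAR-gamma targets were at -0.10. With the 75th percentile, PPAR-gamma targets were at 0.23, neutrophil markers at 2.08 and lymphocyte markers at 2.19. With expression on both arrays, other nuclear receptors were at -0.46 and neutrophil markers at 1.41. With the median over probe sets, other nuclear receptors were at -0.12, lymphocyte markers at 0.88 and stellate markers at 0.21. With plain _at probe sets alone, FXR targets were at 0.13, glucocorticoid receptor targets at -0.17, neutrophil markers at 2.55, lymphocyte markers at 0.88, stellate markers at 0.31 and cholangiocyte markers at -0.27. No paired analysis was possible because each group has 1 array. No replicate could be left out. Dim probe sets limit the values of Thrb, Rara, Vdr and Hnf4g.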

Other observations

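Of the 31 receptor probe sets below the expression limit on both arrays, 7 were higher (22.6%) and 4 lower (12.9%) by 1.5-fold, beside 11.3% and 13.7% of all 13956 such probe sets. One of Nr6a1 stood at 16.5 against 1.01 (congenic first), a log2(intensity + 5) difference of 1.84, against -0.67 in the gene's brightest probe set. A dim probe set of Rxra stood at 5.10 against 1, and one of Rora at 1.48 against 7.54, each on the side opposite to most of the gene's other probe sets or beyond their range.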
